A study of Mus musculus with 24 samples.

Results

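Gene expression was compared between suspended C2C12 myoblasts given siRNA against IFT88 (written IFT88KD) and suspended C2C12 myoblasts given a negative control siRNA (written control), with 3 arrays in each group, 6 of the 24 arrays of the series. C2C12 is an established line of mouse skeletal muscle myoblasts. All 6 arrays were chosen by their titles, and those of equal replicate number were taken as a pair. The cells were held in suspension in DMEM with 20% fetal bovine serum, the serum level of the adherent proliferating cultures. The other arrays came from the same siRNA treatments in proliferating cells, in cells replated for 2 h after suspension, and in cells kept for 48 h in DMEM with 2% NHS to differentiate, with 3 arrays in each group. Neither the time in suspension nor the time after siRNA is given in the labels. All groups are of a single cell line, and nothing in the labels says whether replicates were separate cultures, so p-values measure the spread between these samples, which may be technical.

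Myoblasts that lose their anchorage stop dividing without differentiating, leave the cycle in a reversible state called G0 or quiescence, and enter the cycle again when they are replated. Many quiescent cells carry a primary cilium, a single microtubule-based projection that grows from the mother centriole and is taken down before mitosis. Ift88 encodes a subunit of the IFT-B complex, which carries cargo along the cilium and is required to build it. Hedgehog signalling in vertebrate cells runs through the primary cilium.

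Ift88 itself was measured by a single probe set. Its log2 signal was 3.89, 3.56 and 3.42 on IFT88KD arrays 1 to 3 and 4.45, 4.25 and 4.24 on the control arrays. The IFT88KD arrays all lay below the control arrays, and the mean difference was -0.69 log2 (SE 0.12), a 1.61-fold lower signal (adjusted p = 0.00192 by limma with pairs as blocks, and 0.0113 without pairs). Here and below, p-values are Benjamini-Hochberg adjusted over the 8597 genes kept, and a gene is called past the threshold at an adjusted p under 0.05. The fall was also past the threshold with any pair left out, but in the model without pairs it was -0.58 (adjusted p = 0.073) without IFT88KD quiescent replicate 3 and -0.62 (adjusted p = 0.0548) without control quiescent replicate 1. The fall of Ift88 was larger than its change in differentiating cells by 0.68 log2 (limma, adjusted p = 0.0357). Protein and cilia were not measured on these arrays.

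The cultures carried markers of myoblasts. Of 11 myoblast markers on the array, 8 were kept, and Pax7, Met and Msc lay under the filter percentile (the 40th percentile of each array) on all 6 arrays. Myod1, which encodes a transcription factor that commits cells to muscle, stood at 7.32, 7.11 and 7.42 log2 on the IFT88KD arrays and at 6.80, 6.46 and 6.72 on the control arrays. Of the 8 markers kept, 5 were higher with pairs (median 0.32) and 0 without pairs in limma, where 3 were under 0.05 before adjustment. The summed linear signal of the 11 markers ran from 1795 to 1915 on IFT88KD and from 1423 to 1623 on control arrays, with no overlap, and its part in the muscle gene results was not tested.

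Median signal over all probe sets lay between 3.79 and 3.85 log2 on the 6 arrays. The 3' minus 5' difference of Gapdh control probe sets ran from 0.51 to 0.61 log2 on IFT88KD and from 0.40 to 0.56 on control arrays, and that of actin from 1.14 to 1.21 and from 1.22 to 1.31. The part of these differences in the results was not tested.

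IFT88 siRNA shifted 1173 of 8597 genes past the threshold in quiescent cells, which is 13.6%. Of these, 578 were higher (6.72%) and 595 were lower (6.92%). The median change of all genes was -0.01 log2. Without pairs the counts were 248 higher (2.88%) and 199 lower (2.31%). All of these 447 genes (5.2%) were also past the threshold with pairs. Large changes were mostly rises, with 77 genes higher and 18 lower by at least 1 log2, and 41 of the 77 belonged to a cell cycle list. These lists held 85 mitotic, 56 DNA replication and repair and 17 G1 genes among the 8597 kept. They were chosen with earlier results of these data known. The IFT88KD arrays did not overlap the control arrays for 962 higher genes (11.2%) and 1177 lower genes (13.7%), whether past the threshold or not. Among the called genes, 66 of the higher ones lay under the filter percentile on all control arrays, as did 26 of the lower ones on the IFT88KD arrays, where the size of a change is uncertain. Since these are bulk samples, more cells that express a gene and more RNA per cell cannot be told apart.

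**Figure D1:**
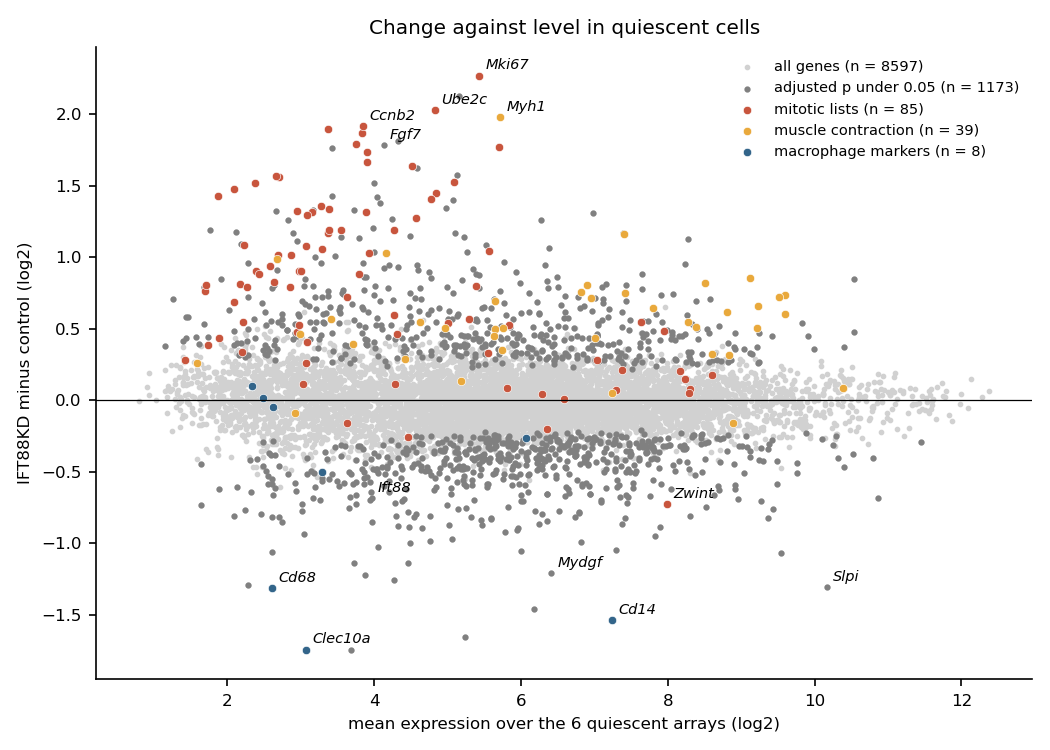
Each point is 1 gene, placed by its mean log2 expression over the 6 quiescent arrays (horizontal) and its IFT88KD minus control log2 change (vertical). The genes of the mitotic lists lie mostly above 0 with Mki67 the highest at 2.27. Of the 8 macrophage markers kept, Clec10a, Cd14 and Cd68 are past the threshold, at -1.74, -1.54 and -1.32. Clec10a and Cd68 passed the filter only through control quiescent and replated arrays, and the median of all 25 markers on the array is -0.09.

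Genes of mitosis formed the main block of rises. Mki67 encodes Ki-67, which coats mitotic chromosomes and marks cycling cells. Its log2 signal was 6.31, 6.76 and 6.63 on IFT88KD arrays and 3.97, 4.14 and 4.79 on control arrays. The groups were far apart, control replicate 3 being the highest of the controls, and the change was 2.27 (SE 0.14, limma adjusted p = 5.11e-07), or 4.82-fold. Over the 5 mitotic lists 64 of 85 measured genes were higher and 1 was lower, and 20 did not pass, with a median change of 0.83 log2 against -0.01 over all genes. The 64 rises ran from 0.38 to 2.27. Of these, 56 were also higher without pairs, and 58, 58 and 59 were higher without replicate 1, 2 and 3. The control arrays of 22 of the called genes lay under the filter percentile.

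Cyclins and kinases that drive mitotic entry rose in 10 of 16 cases (median 0.46). The mitotic cyclin gene Ccnb2 read 4.63, 5.23 and 4.56 log2 in IFT88KD cells and 2.67, 2.64 and 3.37 in control cells, a rise of 1.91 (SE 0.21). Ccna2, whose product acts in S phase and in early mitosis, read 5.08, 5.55 and 5.39 against 3.76, 3.45 and 3.90, a rise of 1.64 (SE 0.13). Neither gene's groups overlapped, and in both the second IFT88KD array was the highest. Cdk1, the kinase these cyclins activate, rose by 1.04 (SE 0.09) from a higher base, with 5.89, 6.32 and 6.06 against 4.93, 5.09 and 5.12. Plk1, a kinase of mitotic entry and spindle formation, rose by 1.32 (SE 0.13) and Melk, another kinase gene, by 0.79 (SE 0.09), with adjusted p-values in limma of 2.64e-05 and 8.78e-05.

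Of the Aurora kinase and spindle genes 25 of 27 were higher, with a median of 1.08. Nusap1, which encodes a microtubule-binding protein of the spindle, read 3.99, 4.75 and 4.22 log2 against 2.44, 2.44 and 2.40. Its control arrays lay close together, all under the filter percentile, and its rise was 1.89 (SE 0.12). Birc5 encodes survivin, the subunit that places the Aurora B complex on chromosomes, and read 4.60, 4.97 and 4.72 against 2.57, 2.93 and 3.19. Its rise of 1.87 (SE 0.10) had a limma adjusted p of 3.53e-07. Racgap1, which encodes a subunit of the centralspindlin complex of cytokinesis, rose by 1.73 (SE 0.11). Cep55, which acts in the last cut between daughter cells, rose by 1.56 (SE 0.13). A second, dimmer probe set of Nusap1 changed by 0.00 and that of Cep55 by 0.13, while a second probe set of Racgap1 changed by 1.19.

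Kinetochore and checkpoint genes were higher in 15 of 18 cases, with a median of 0.96. Bub1, a checkpoint kinase gene, read 4.10, 5.10 and 4.75 log2 against 2.25, 3.20 and 3.12. Replicate 1 was the lowest in both groups, so the 3 pairs agreed more closely than the arrays within a group, and the rise was 1.79 (SE 0.10, limma adjusted p = 3.53e-07). Cenpf and Ttk, which encode a kinetochore protein and a checkpoint kinase, rose by 1.67 (SE 0.15) and 1.57 (SE 0.12). A dimmer second probe set of Cenpf changed by 0.21 (SE 0.12), and that of Bub1 read 0.00. Zwint, which encodes a protein that holds the checkpoint's RZZ complex at the kinetochore, went the other way and is named because it was the sole fall, a choice made after its values were seen. It read 7.47, 7.64 and 7.78 against 8.08, 8.53 and 8.45, a fall of 0.73 (SE 0.08, limma adjusted p = 3.07e-05). The other 5 probe sets of Zwint changed by -0.27 to -0.79.

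Chromosome structure genes were higher in 11 of 16 cases, with a median of 0.76. Top2a, which encodes the topoisomerase that untangles sister chromatids, read 6.33, 6.83 and 6.59 log2 against 4.50, 4.84 and 5.10, a rise of 1.77 (SE 0.11). A dimmer second probe set of Top2a changed by 0.03, and with probe sets averaged the rise of Top2a was 0.90. The condensin subunit gene Smc2 rose by 1.27 (SE 0.10), with 4.96, 5.42 and 5.24 against 3.90, 3.99 and 3.91. In the anaphase-promoting complex list 3 of 8 genes were higher and 5 did not pass, with a median of 0.09. These 3 were its ubiquitin carrier Ube2c, its activator Cdc20 and its substrate Pttg1 (securin). Ube2c read 5.56, 6.18 and 5.78 against 3.70, 3.64 and 4.10, a rise of 2.03 (SE 0.17), Cdc20 rose by 1.45 (SE 0.13) and Pttg1 by 0.55 (SE 0.10).

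The 14 largest rises also included genes outside the lists. Pbk, a kinase gene of dividing cells, read 4.96, 5.27 and 5.47 log2 against 3.29, 3.18 and 3.82, a rise of 1.81 (SE 0.15). Aspm, which encodes a protein of the spindle poles, rose by 1.76 (SE 0.15) and a dimmer second probe set of it by 0.87. The transcript D17H6S56E-5 rose by 2.13 (SE 0.15), with 6.07, 6.49 and 6.11 against 3.98, 3.87 and 4.44.

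**Figure D2:**
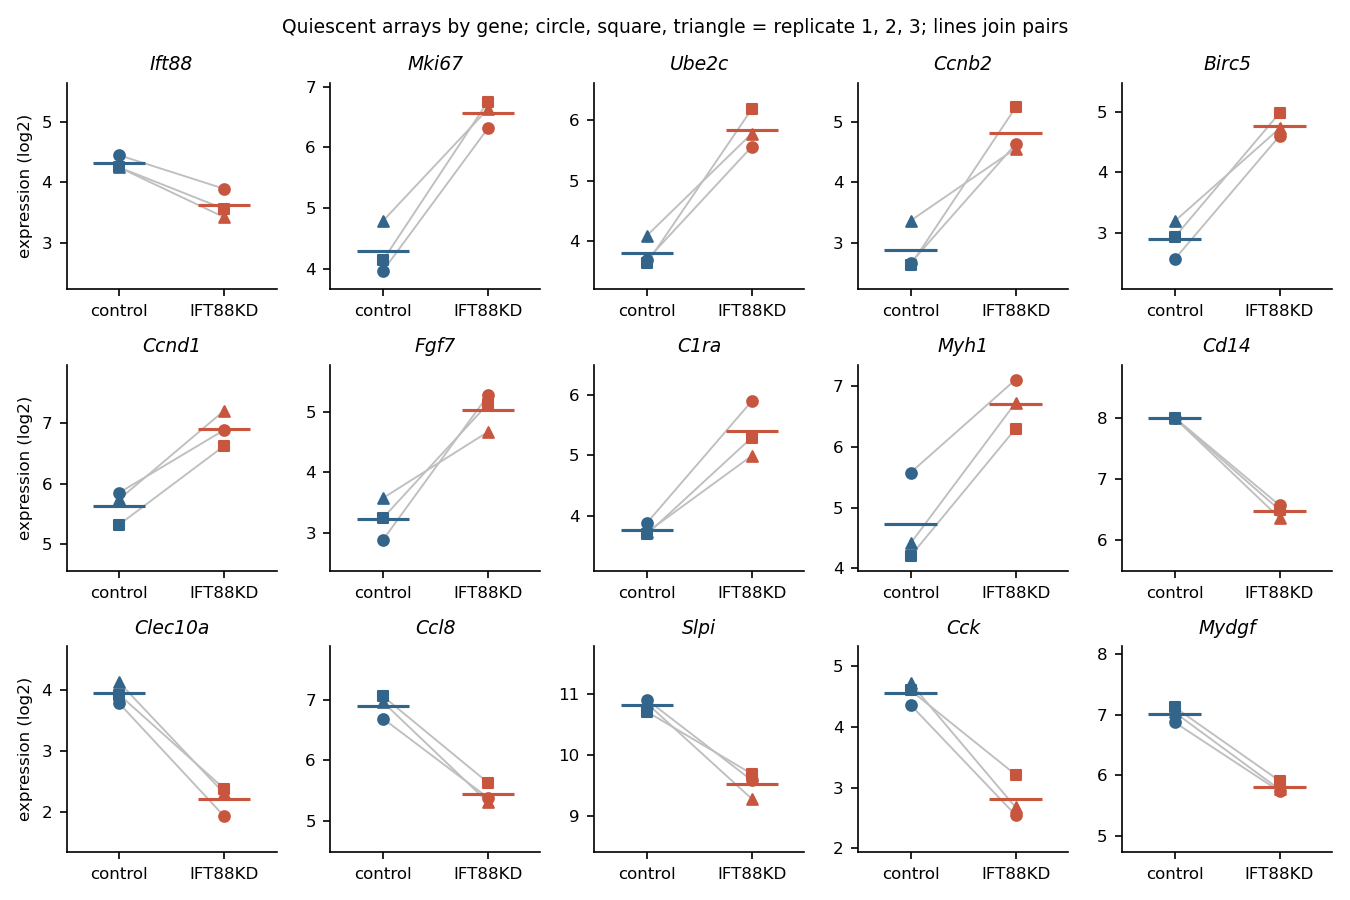
Log2 expression of 15 genes on the 3 control and 3 IFT88KD quiescent arrays, on axes of equal span. Symbols mark the replicate, grey lines join the arrays of a pair and bars are means. In Mki67, Ube2c, Ccnb2, Birc5, Ccnd1, Fgf7, C1ra and Myh1 every IFT88KD array lies above every control array, and in Ift88, Cd14, Clec10a, Ccl8, Slpi, Cck and Mydgf every one lies below.

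Promoters of mitotic genes are known to carry CCAAT boxes, bound by the factor NF-Y, and the cell cycle genes homology region (CHR), bound by the DREAM repressor in resting cells and by the B-MYB and FOXM1 complex in dividing cells. The 250 bases before the RefSeq start in build GRCm38.p6 were searched on both strands for CCAAT and for the CHR letters TTTGAA or TTCGAA. The window was available for 53 of the 64 higher mitotic genes. It held a CHR in 22 of them (41.5%) and a CCAAT box in 37 (69.8%), while for all 6974 genes kept that had a window these shares were 14.2% and 40.8%. Over all 32851 windows the shares were 17.1% for CHR and 33.8% for CCAAT. An E2F site, searched as well, was held by 2 of the 53 (3.77%) and by 3.13% of the genes kept. Of the 16 higher DNA replication and repair genes, 14 had a window. A CCAAT box was as frequent there, in 10 (71.4%), while a CHR was held by 2 (14.3%) and an E2F site by 3 (21.4%). The members were chosen for a function that these motifs are known to go with, so the shares are a description. Windows of 4 genes with large rises are printed 5′ to 3′ on the gene's own strand, since 3 hold both motifs and the fourth holds none. They lie at chr7:135716380-135716629 (minus strand) for Mki67, chr2:164769679-164769928 (plus strand) for Ube2c, chr9:70421555-70421804 (minus strand) for Ccnb2 and chr11:117848987-117849236 (plus strand) for Birc5. Capitals mark the motifs found, also where they are read on the other strand.
Mki67: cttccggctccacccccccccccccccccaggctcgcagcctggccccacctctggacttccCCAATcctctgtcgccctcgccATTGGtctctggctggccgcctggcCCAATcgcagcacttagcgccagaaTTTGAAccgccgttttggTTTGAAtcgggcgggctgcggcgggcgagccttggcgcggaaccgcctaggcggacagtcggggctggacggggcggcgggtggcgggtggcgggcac
Ube2c: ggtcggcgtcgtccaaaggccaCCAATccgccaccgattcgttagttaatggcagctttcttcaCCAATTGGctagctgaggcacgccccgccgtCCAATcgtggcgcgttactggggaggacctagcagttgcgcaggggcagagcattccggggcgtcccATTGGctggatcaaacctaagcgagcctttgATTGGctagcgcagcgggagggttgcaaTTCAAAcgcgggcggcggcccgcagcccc
Ccnb2: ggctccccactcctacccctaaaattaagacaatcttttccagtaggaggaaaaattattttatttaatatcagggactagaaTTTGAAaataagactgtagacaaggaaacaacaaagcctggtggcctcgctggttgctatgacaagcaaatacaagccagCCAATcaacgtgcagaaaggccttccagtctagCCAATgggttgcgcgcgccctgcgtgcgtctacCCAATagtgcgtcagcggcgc
Birc5: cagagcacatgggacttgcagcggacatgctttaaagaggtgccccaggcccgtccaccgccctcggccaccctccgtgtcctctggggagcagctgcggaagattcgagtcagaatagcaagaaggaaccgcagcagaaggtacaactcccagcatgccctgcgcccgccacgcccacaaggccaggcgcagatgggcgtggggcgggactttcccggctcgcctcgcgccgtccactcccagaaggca
The Mki67 window held 2 CHR and 3 CCAAT matches, Ube2c 1 and 6, and Ccnb2 1 and 3. The Birc5 window held none of the letters searched, although Birc5 rose by 1.87 log2. The windows of Nusap1 and Bub1, not printed here, held no CHR, with 0 and 2 CCAAT matches. A match is not a site shown to be bound.

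Among genes of DNA replication and repair the rises were fewer, with 16 of 56 higher and 1 lower (12 and 0 without pairs) and a median of 0.29. The helicase subunit gene Mcm5 read 3.41, 3.30 and 3.65 log2 in IFT88KD cells against 2.32, 2.02 and 2.23, a rise of 1.26 (SE 0.13), from control arrays that all lay under the filter percentile. Mcm3 of the same helicase rose by 1.13 (SE 0.18), and its other 4 probe sets changed by -0.16 to 1.07. Uhrf1, which acts in keeping DNA methylation through replication, rose by 1.33 (SE 0.08) and the thymidine kinase gene Tk1 by 1.03 (SE 0.10), both past the threshold in limma. Some S phase genes did not pass. Pcna, the sliding clamp, changed by 0.13 (SE 0.08, limma adjusted p = 0.305), and Rrm2, the ribonucleotide reductase subunit, by 0.19 (SE 0.16, limma adjusted p = 0.5). Cdt1, a licensing factor gene named because it was the only fall, changed by -0.39 (SE 0.10, limma adjusted p = 0.0167, and 0.2 without pairs). Without replicate 1 the helicase and licensing list had 3 higher genes in place of 6.

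The median change of the G1 regulators was 0.23. With pairs 5 of 17 were higher and 0 lower, beside 6.72% and 6.92% of all genes. Without pairs only Ccnd1 was higher (2.88% of all genes). Ccnd1 encodes cyclin D1, which couples growth signals to the start of the cycle. It read 6.88, 6.62 and 7.20 log2 against 5.85, 5.32 and 5.74, a rise of 1.26 (SE 0.09, limma adjusted p = 1.16e-06, and 0.00274 without pairs). Both other probe sets of Ccnd1 rose as well, by 1.32 and 1.15. The partners Cdk4 and Cdk2 changed by 0.12 (SE 0.07) and 0.07 (SE 0.09), and E2f1 by 0.01 (SE 0.08), none of them past the threshold in limma. The G1 count was 3, 4 and 2 without replicate 1, 2 and 3.

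Among 20 CDK inhibitors, pocket proteins and arrest genes the median change was 0.05. With pairs 1 gene was higher and 1 was lower, beside 6.72% and 6.92% of all genes. Without pairs limma called 0 of them (5.2% of all genes), while 3 were under 0.05 before adjustment. Cdkn1a, which encodes the inhibitor p21, was high on every array, at 10.24, 10.08 and 10.19 log2 in IFT88KD and 10.31, 10.21 and 10.25 in control cells. Its groups overlapped and its change was -0.09 (SE 0.09, limma adjusted p = 0.584). Cdkn1b, which encodes the inhibitor p27, fell by 0.46 (SE 0.13, limma adjusted p = 0.0339), with 6.89, 7.18 and 7.32 against 7.54, 7.68 and 7.55. That call was lost without pairs (adjusted p = 0.121 in limma), without replicate 1 (-0.37, adjusted p = 0.198 in limma) and without replicate 2 (-0.44, adjusted p = 0.143 in limma). The pocket protein gene Rbl1 rose by 0.42 (SE 0.10, limma adjusted p = 0.0144), which was lost without pairs (adjusted p = 0.199 in limma), without replicate 2 (0.32) and without replicate 3 (0.42).

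**Figure D3:**
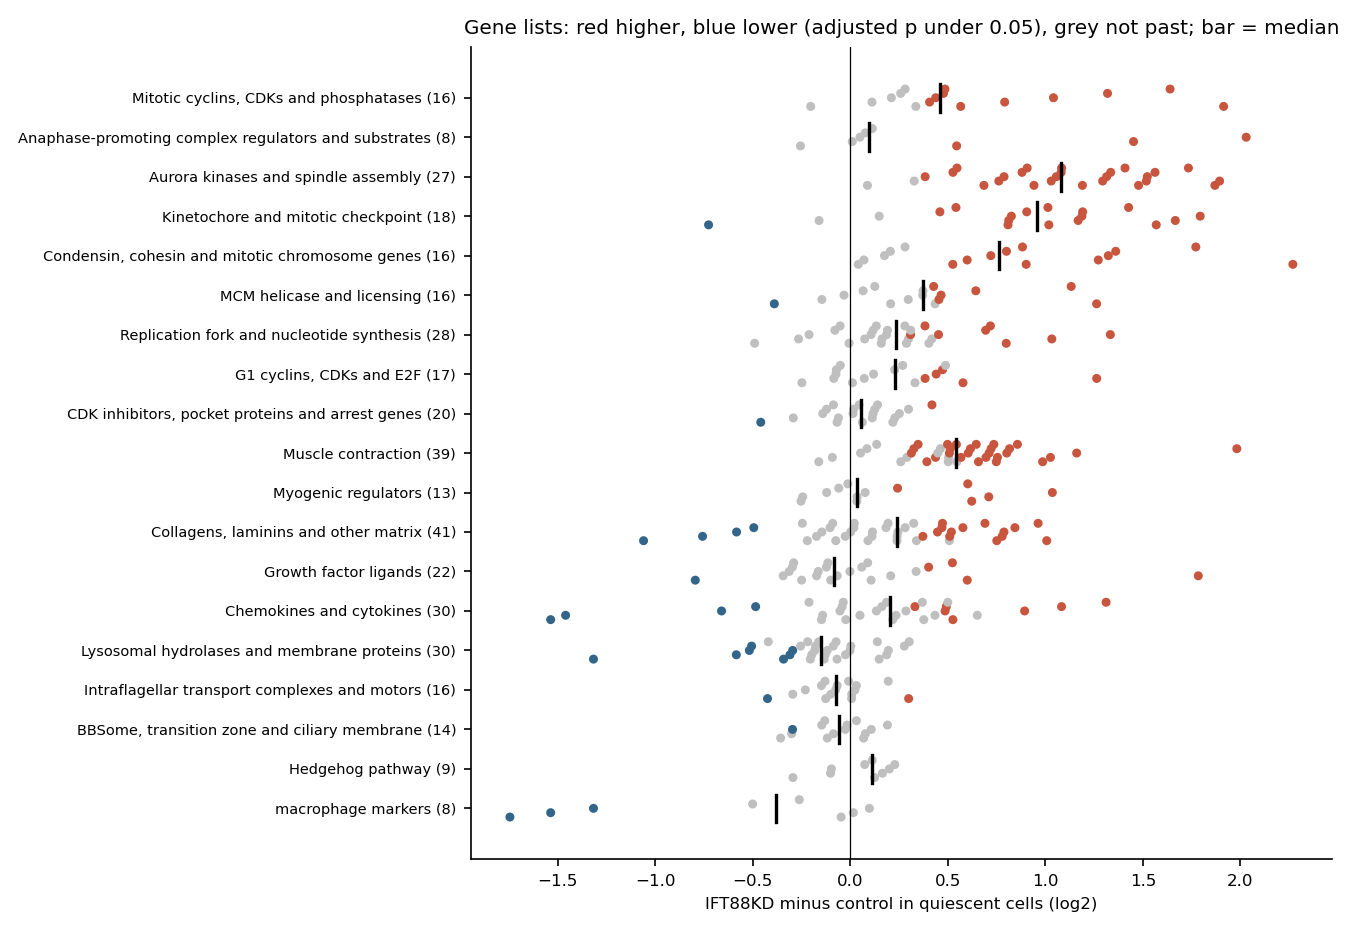
Each point is 1 gene of a list, placed by its IFT88KD minus control log2 change in quiescent cells, with the number of genes measured in parentheses. Red and blue points are past the threshold and black bars are medians, which run from 1.08 for the Aurora and spindle list to -0.38 for the 8 macrophage markers kept, against -0.09 over all 25 on the array.

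The rises left the mitotic genes well below their level in dividing cells. The median distance of the 85 genes from control proliferating cells was -4.08 log2 in control quiescent and -3.08 in IFT88KD quiescent cells, and 83 of the 85 remained below. Mki67 averaged 9.51 ± 0.14 in control proliferating, 4.30 ± 0.43 in control quiescent and 6.57 ± 0.23 in IFT88KD quiescent cells (log2, SD, n = 3). Scale differs between states, with sorted values of all 24 arrays spread over a median of 0.44 log2 against 0.06 within the 6 quiescent arrays. Whether the states were normalised together is not given in the sources used here, and the part of scale in these distances was not tested.

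The effect on many mitotic genes differed between culture states. Their median change was 0.83 in quiescent, 0.00 in proliferating, 0.41 in replated and 0.20 in differentiating cells. Past the threshold, 46 of them were higher in replated cells (6.27% of all genes), 1 in proliferating (0.954%) and 1 in differentiating cells (0.512%). In a direct test by limma, the quiescent effect exceeded the proliferating one for 52 of the 85 genes (2.29% of all genes), the differentiating one for 40 (3.04%) and the replated one for 3 (0.105%). Without pairs these counts were 38, 29 and 0, with 31 of the 85 under 0.05 before adjustment against replated cells. For Mki67 the quiescent effect was larger by 2.24 (SE 0.20) than the proliferating and by 2.08 (SE 0.20) than the differentiating effect, with limma adjusted p-values of 5.16e-05 and 0.000112. Against replated cells, where Mki67 was 5.61 ± 0.08 in IFT88KD and 3.39 ± 0.39 in control cells (SD, n = 3), the difference of effects was 0.05 (limma adjusted p = 0.97). Over all genes the effects differed for 330 genes against proliferating (3.84%), 452 against differentiating (5.26%) and 12 against replated cells (0.14%), and without pairs for 107, 97 and 5. Of the 3 mitotic genes that rose more in quiescent than in replated cells, Ect2 differed by 1.26, Nusap1 by 1.07 and Kif11 by 0.90, and none of these differences passed without pairs (limma adjusted p = 0.144, 0.144 and 0.513).

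**Figure D4:**
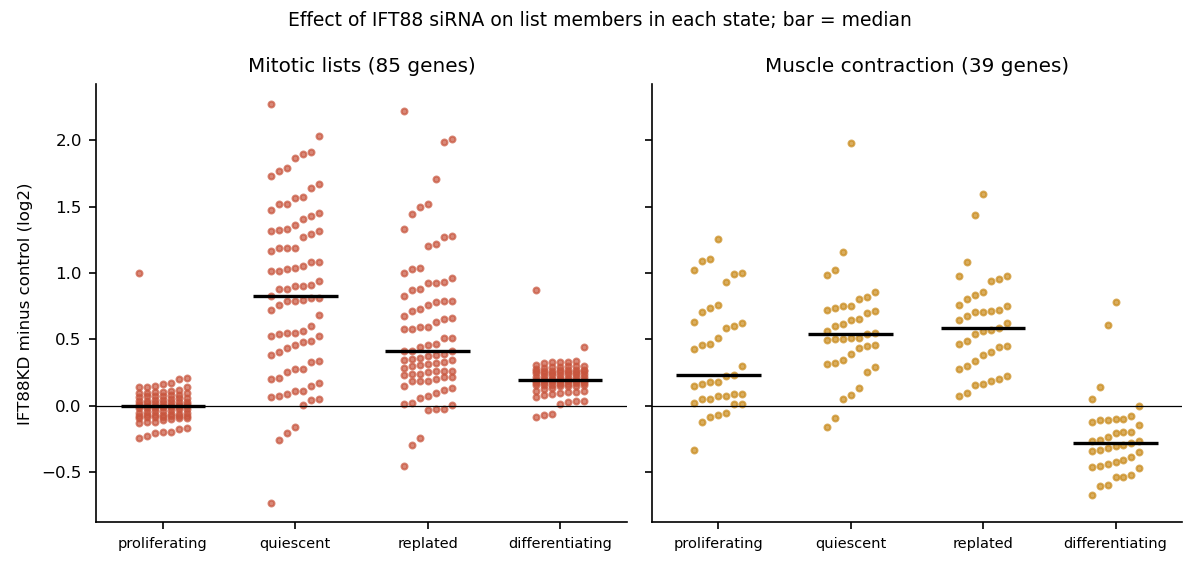
Log2 change with IFT88 siRNA of the 85 mitotic genes (left) and 39 muscle contraction genes (right) in the 4 culture states, 1 point a gene and a bar at the median. The mitotic medians are 0.00, 0.83, 0.41 and 0.20 and the muscle medians 0.23, 0.54, 0.59 and -0.28, in the order plotted.

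Muscle contraction genes rose in many cases with pairs and in few without. Their median change in quiescent cells was 0.54, with 27 of 39 higher, 0 lower and 12 not past the threshold, but without pairs only Myh1, Casq1 and Actn2 were higher. Without replicate 1, 2 and 3 the count was 14, 16 and 15. Tnnc1, which encodes the calcium-binding troponin of slow and cardiac muscle, read 10.01, 9.23 and 9.40 log2 in IFT88KD cells and 9.02, 8.57 and 8.48 in control cells, replicate 1 being the highest of both groups, a rise of 0.86 (SE 0.11, limma adjusted p = 0.000248, and 0.496 without pairs). The myosin gene Myh1 had the largest rise, at 1.98 (SE 0.26), with 7.11, 6.30 and 6.73 against 5.58, 4.20 and 4.41. Without pairs and without control quiescent replicate 2 it was 1.72 (limma adjusted p = 0.0587), and of its other probe sets 1 rose by 1.75 and 1 read -0.11. Casq1, which encodes the calcium store protein of fast fibres, rose by 1.03 (SE 0.17) and the Z-disc gene Actn2 by 0.99 (SE 0.15).

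Among the regulators of muscle fate 5 of 13 were higher and 0 lower, beside 6.72% and 6.92% of all genes, with a median of 0.03. Mef2c, a transcription factor gene of muscle differentiation, read 5.85, 5.69 and 5.82 log2 against 4.41, 4.65 and 5.20, a rise of 1.04 (SE 0.20), and its other 4 probe sets rose by 0.70 to 1.09. Myod1, given above, rose by 0.62 (SE 0.09, limma adjusted p = 0.000396, and 0.0611 without pairs). Myog, whose product starts terminal differentiation, rose by 0.71 (SE 0.20, limma adjusted p = 0.0328), but its adjusted p was 0.637 without pairs and 0.096 to 0.158 in limma with a pair left out. Only Mef2c of the 5 passed without pairs, and the list had 3 higher genes with any replicate number left out. In differentiating cells the median of the contraction genes was -0.28, and the quiescent effect exceeded that one for 24 of 39 (3.04% of all genes), against 3 of 39 for proliferating cells (2.29%). Without pairs these counts were 1 and 0 in limma, with 13 and 3 under 0.05 before adjustment. In replated cells the median was 0.59 and 26 of 39 were higher. The quiescent and replated effects differed past the threshold for 0 of 39 in limma with or without pairs, while 3 and 1 were under 0.05 before adjustment.

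Of 22 growth factor ligands, 4 were higher and 1 lower with pairs, beside 6.72% and 6.92% of all genes. Their median change was -0.08. Fgf7, which encodes a fibroblast growth factor that acts on epithelia, read 5.27, 5.13 and 4.67 log2 against 2.89, 3.25 and 3.58, a rise of 1.78 (SE 0.25, limma adjusted p = 0.000356). Igf2, an insulin-like growth factor gene of myoblasts, rose by 0.60 (SE 0.10, limma adjusted p = 0.000961, and 0.578 without pairs), and its second probe set changed by 0.26. Hgf, which encodes the ligand of Met, fell by 0.79 (SE 0.19, limma adjusted p = 0.0119), a call lost without replicate 1 (-0.82, adjusted p = 0.0526 in limma) and without replicate 3 (-0.53, adjusted p = 0.131 in limma). Without replicate 1 and 2 only 2 ligand genes were higher, and without pairs only Fgf7 was.

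Of 24 receptors and adaptors, 4 were higher and 1 lower, beside 6.72% and 6.92% of all genes. Irs1, the adaptor that links insulin and IGF1 receptors to their pathways, read 9.05, 8.64 and 8.81 log2 against 7.76, 7.70 and 7.66, a rise of 1.13 (SE 0.11). Grb14, which encodes an adaptor that binds and dampens the insulin receptor, rose by 1.0 (SE 0.13), while Irs2 was lower by 0.47 (SE 0.10) with pairs (limma adjusted p = 0.00554, and 0.145 without pairs), a call lost without replicate 3 (-0.42, adjusted p = 0.0532 in limma). The immediate early genes, which follow serum and stress signals, had 1 of 27 higher (6.72% of all genes). Fos and Egr1 changed by 0.04 (SE 0.36) and 0.13 (SE 0.16), neither past the threshold in limma. Without pairs and without replicate 3 the receptor list had 2 higher genes each.

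The matrix list held 14 of 41 higher and 4 lower genes, beside 6.72% and 6.92% of all genes, with a median of 0.24. Without pairs these were 10 and 2, beside 2.88% and 2.31% of all genes. Nid2, a basement membrane gene, averaged 6.25 ± 0.23 log2 against 5.29 ± 0.20 (SD, n = 3) with no overlap, a rise of 0.96 (SE 0.13). Col8a1, a short-chain collagen gene, rose by 1.01 (SE 0.15), though a second probe set read 0.06. Col1a1, a fibrillar collagen gene, rose by 0.79 (SE 0.19, limma adjusted p = 0.0126, and 0.187 without pairs), a call also lost without replicate 2 and without replicate 3, while Col3a1 at -0.03 (SE 0.09) and Fn1 at -0.10 (SE 0.08) did not pass. Among the fibroblast markers kept 1 of 7 was higher and 3 lower, Lum (given below) among them, and 0 and 2 without pairs. The summed linear signal of the 10 fibroblast markers on the array was 4721 to 5325 on IFT88KD and 5370 to 5749 on control arrays. Their part in the matrix results was not tested. Lum, a matrix proteoglycan gene, fell by 1.06 (SE 0.25), but it would not have passed the filter without the control quiescent arrays. It read 4.32 on control array 3 against 2.49 and 2.60 on the others. Without replicate 3 it was -0.55 (limma adjusted p = 0.0968), and the matrix list had 1 lower gene.

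Complement and chemokine genes showed rises and falls side by side. The complement proteases C1ra and C1s1 rose by 1.62 (SE 0.17) and 1.57 (SE 0.29), C1ra with 5.89, 5.29 and 4.99 log2 against 3.89, 3.70 and 3.73. They were 2 of the 5 complement genes kept, 9 others on the array being left out as dim. The chemokine gene Cxcl12, whose product guides muscle progenitors, rose by 1.31 (SE 0.13), with 7.69, 7.88 and 7.32 against 6.25, 6.42 and 6.30, and its second probe set by 0.86. The whole chemokine and cytokine list had 7 of 30 higher and 4 lower, beside 6.72% and 6.92% of all genes. Without pairs these were 2 and 3, and without replicate 1 there were 2 higher.

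The 14 largest falls included genes of secreted, surface and intracellular proteins. Cd14, the lipopolysaccharide co-receptor, read 6.57, 6.49 and 6.36 log2 in IFT88KD cells against 8.01, 8.00 and 8.01, and the arrays of each group lay close together. The change was -1.54 (SE 0.11, limma adjusted p = 1.17e-06), or 2.90-fold. Ccl8, a chemokine gene, read 5.39, 5.63 and 5.31 against 6.69, 7.06 and 6.96, a fall of 1.46 (SE 0.14). Slpi, which encodes a secreted inhibitor of leukocyte proteases, read 9.58, 9.69 and 9.28 against 10.91, 10.71 and 10.85, a fall of 1.31 (SE 0.11). The peptide hormone gene Cck fell by 1.75 (SE 0.19), from 4.36, 4.60 and 4.72 to 2.55, 3.21 and 2.67.

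Mydgf, a secreted growth factor gene, read 5.74, 5.91 and 5.77 log2 against 6.88, 7.12 and 7.04, a fall of 1.21 (SE 0.07, limma adjusted p = 3.53e-07), and its other 2 probe sets fell by 0.89 and 0.90. The signalling regulator gene Rgs5 fell by 1.07 (SE 0.18), and its other 3 probe sets fell by 1.19 to 1.47. The neuroendocrine genes Scg2 and Calcb fell by 1.26 (SE 0.15) and 1.14 (SE 0.15), and the adaptor gene Fyb by 1.14 (SE 0.09). Sprr2h fell by 1.66 (SE 0.18) and Wfdc18 by 1.22 (SE 0.22), both on probe sets of the s_at kind, which can bind several related transcripts. Wfdc18 was -1.03 (limma adjusted p = 0.0843) without IFT88KD quiescent replicate 2 and -0.87 (limma adjusted p = 0.106) without control quiescent replicate 3 when pairs were not used. Cd93, a surface lectin gene, fell by 1.29 (SE 0.12) on a probe set that would not have passed the filter without the control quiescent arrays. A second probe set of Cd93 read -0.10.

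Several falls were in genes that macrophages also express. Of 25 macrophage markers on the array, 8 were kept, of which Clec10a, Cd14 and Cd68 were lower and 0 higher. The median of the 8 was -0.38, in part fixed by the filter, and that of all 25 markers was -0.09. Clec10a, a lectin gene, read 1.93, 2.38 and 2.30 log2 against 3.79, 3.93 and 4.13, and Cd68, a lysosomal membrane gene, 2.18, 1.85 and 1.84 against 3.16, 3.36 and 3.30. Both were under the filter percentile on each of the IFT88KD arrays and passed the filter only through control quiescent and replated arrays, so they had to differ, and their falls of 1.74 (SE 0.11) and 1.32 (SE 0.16) are uncertain in size. The other 17 markers, among them the defining genes Ptprc, Itgam, Adgre1, Spi1 and Tyrobp, lay under the filter percentile on all 6 arrays. The summed linear signal of the 25 markers ran from 220 to 233 on IFT88KD and from 418 to 446 on control quiescent arrays, against 82.2 to 97.6 on the proliferating arrays. On the control quiescent arrays most of this sum came from Cd14 alone. The sum therefore does not show a fall shared by the 25 markers, whose median was -0.09.

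The falls of Cd14, Ccl8 and Slpi were in genes that are high in suspension. Cd14 averaged 4.21 ± 0.38 in control proliferating and 8.01 ± 0.00 in control quiescent cells, and Slpi 3.60 ± 0.15 and 10.83 ± 0.10 (log2, SD, n = 3). The fall of Cd14 was 1.22 log2 larger in suspension than in adherent proliferating cells (limma adjusted p = 0.000486) and that of Ccl8 by 1.31 (limma adjusted p = 0.0018). Mydgf differs from these genes. It was close in control proliferating (6.66 ± 0.11) and control quiescent cells (7.01 ± 0.13, SD, n = 3), and its fall of 0.90 in proliferating cells passed in limma (adjusted p = 2.5e-05).

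**Figure D5:**
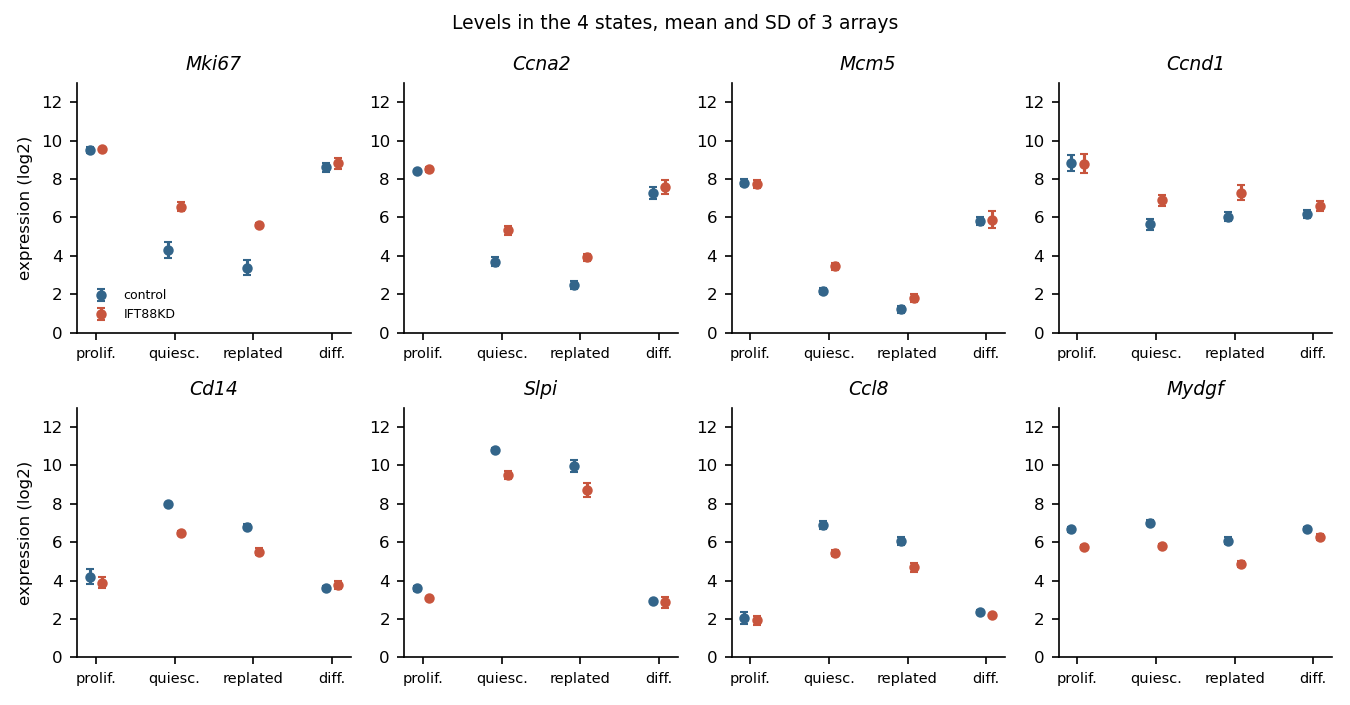
Mean log2 expression with SD of 3 arrays in control (blue) and IFT88KD cells (red) for 8 genes over the 4 states. Mki67, Ccna2 and Mcm5 separate by siRNA in suspended and replated cells, Cd14, Slpi and Ccl8 are high there and lower with IFT88 siRNA, and Mydgf is lower with it in every state.

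In the lysosomal list 7 of 30 genes were lower (6.92% of all genes) and 0 higher, with a median of -0.15. Without pairs 2 were lower (2.31% of all genes), and 4, 5 and 3 were lower without replicate 1, 2 and 3. Cd68 was the largest of the 7, and its fall was in part fixed by the filter, as given above. Ctsh, which encodes a cathepsin protease, fell by 0.58 (SE 0.11, limma adjusted p = 0.00368, and 0.0646 without pairs), with 4.60, 4.87 and 5.34 log2 against 5.12, 5.55 and 5.89. Its groups overlapped while each of its pairs fell. Of the tubulin and stathmin genes, which set microtubule supply, Stmn1 rose by 0.88 (SE 0.12) and its neuronal relative Stmn2 fell by 0.76 (SE 0.09), both past the threshold in limma with and without pairs.

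The counts of other signalling lists stand beside 13.6% of all genes past the threshold with pairs and 5.2% without. In the Wnt list 1 of 20 genes was higher and 1 lower, both with and without pairs. Ccn4, a secreted matricellular target of Wnt signalling, read 6.81, 6.68 and 7.25 log2 against 5.78, 5.87 and 5.90, a rise of 1.06 (SE 0.09), and a second probe set rose by 0.98. Dkk2, which encodes a secreted Wnt modulator, read 4.40, 4.71 and 4.64 against 5.49, 5.53 and 5.33, a fall of 0.87 (SE 0.11). The groups of both genes were well apart.

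Of 15 Notch pathway genes 4 were higher and 0 lower with pairs, 1 without pairs, and 1 without replicate 2 or 3. The Notch target Hes1, which encodes a repressor known to act in quiescence, read 5.63, 5.66 and 5.71 log2 against 5.13, 4.99 and 5.17, a rise of 0.57 (SE 0.07, limma adjusted p = 0.000184, and 0.0134 without pairs). The TGF-beta, activin and BMP list had 5 of 27 higher and 5 lower, but 2 and 1 without pairs, and 1 lower without replicate 1 and 2 lower without replicate 2 or 3. Fstl1, a secreted follistatin-like gene, rose by 0.54 (SE 0.08) and its second probe set by 0.55. Of the p53 targets 2 of 15 were higher and 0 lower, led by Zmat3 at 0.61 (SE 0.10).

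The counts of metabolic, mitochondrial and antioxidant lists stand beside 13.6% of all genes past the threshold with pairs and 5.2% without. Of 25 sterol and fatty acid synthesis genes 3 were higher and 2 lower with pairs, and 1 and 1 without. Of 24 glycolysis and hypoxia genes 0 were higher and 2 lower in either model. Among respiratory chain subunits 1 of 29 was higher and 1 lower, Ndufa8 of complex I by 0.49 (SE 0.09) and Cox6b1 of complex IV by -0.51 (SE 0.08). Cox6b1 averaged 9.50 ± 0.23 log2 in IFT88KD and 10.01 ± 0.04 in control cells (SD, n = 3), with no overlap. Of 22 Nrf2 and glutathione genes 1 was higher and 2 were lower with pairs. Gstm2, a glutathione transferase gene, rose by 0.77 (SE 0.12), and Blvrb, a biliverdin reductase gene, fell by 0.59 (SE 0.11). Ndufa8, Cox6b1, Gstm2 and Blvrb were past the threshold in limma with and without pairs. Of the marker genes of other tissues, 2 of 9 endothelial and 2 of 7 bone and cartilage markers on the array were kept, and limma called 0 of either, with 0 and 1 under 0.05 before adjustment. Of 8 adipocyte markers on the array 5 were kept, of which the fatty acid transporter gene Cd36 rose by 0.69 (SE 0.13) and the resistin gene Retn fell by 0.61 (SE 0.14), the fall only with pairs. The epithelial marker Krt19, a keratin gene, fell by 1.0 (SE 0.19), while Cdh1, Epcam, Krt8, Krt18 and Cldn4 lay under the filter percentile on all 6 arrays.

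Among cilium genes other than Ift88, 3 of 30 were past the threshold, beside 13.6% of all genes. Of these measured genes of intraflagellar transport, the BBSome and the transition zone, 1 was higher and 2 lower, with a median of -0.07. Kif3a, a motor subunit gene of intraflagellar transport, read 6.54, 6.39 and 6.32 log2 against 6.81, 6.76 and 6.96, a fall of 0.42 (SE 0.09, limma adjusted p = 0.00589). A second Kif3a probe set fell by 0.58, but without replicate 3 the call was lost (-0.32, adjusted p = 0.074 in limma). B9d2, a transition zone gene, changed by -0.30 (SE 0.07, limma adjusted p = 0.0155), and was lost without replicate 2 (-0.28) and without replicate 3 (-0.26). Ift46 changed by 0.30 (SE 0.08, limma adjusted p = 0.0179), but 0.128 was its adjusted p without pairs, and it was lost with any pair left out (0.27 to 0.32).

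Of 9 Hedgehog pathway genes, 0 passed in limma with pairs (13.6% of all genes) or without pairs (5.2%). In each model 1 was under 0.05 before adjustment. With only 9 genes, a count of 0 cannot be told apart from these shares. The receptor gene Ptch1, itself a target of the pathway, read 5.74, 5.78 and 5.85 log2 against 5.97, 6.30 and 5.99, a change of -0.29 (SE 0.13, limma adjusted p = 0.145). Its IFT88KD arrays all lay below the control arrays. The target gene Gli1 lay under the filter percentile on all 6 arrays (1.75 to 2.33), so a lower level could not have been seen there, and Smo, the signal transducer, changed by 0.12 (SE 0.09, limma adjusted p = 0.425).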

How the data were processed

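RNA of 24 C2C12 samples (1 array each, 3 in each of 8 groups) was labelled from 8 ug total RNA and hybridised to Affymetrix mouse arrays, per the labels' protocols. The deposited series table held log2 expression values for 22690 probe sets, made with GCOS, Affymetrix Expression Console and affy per the submitters' processing notes. Neither the normalisation method nor any version is named there, and 0 values were missing.

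Control probe sets (64) and those with several genes (691) or none (1555) were set aside. Each of 12393 genes took its brightest probe set, avoiding the x_at kind where possible. A gene was kept (8597) if its signal passed the 40th percentile of the array on 3 or more arrays. Limma 3.58.1 (R 4.3.3) fitted all 24 arrays with 12 blocks, 1 for each replicate number within a state, and an IFT88KD effect per state. Deviations of quiescent arrays of equal number correlated at 0.252 to 0.487 across genes, and of unequal number at 0.061 at most. P-values were adjusted by Benjamini-Hochberg with a threshold of 0.05, and the program was tested on simulated data.

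Named genes were Ift88, the 14 largest rises and falls past the threshold with and without pairs whose arrays did not overlap, up to 5 members of each of 44 lists, and the 6 largest differences in each direction between states. Members not past the threshold are named for their role. Members and lists were chosen with earlier results of these data known. Of 162 named genes past the threshold, 70 had 113 other probe sets, 13 of them of opposite sign and 45 smaller by over 1.5 times. Promoter sequences came from RefSeq (GRCm38.p6). Plots were drawn with matplotlib 3.10.9.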

Additional observations from a re-analysis of the deposited data

Results flagged for a closer look

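Effects of IFT88 siRNA that differed between quiescent and another state were tested as interactions in limma, over 8597 genes for each state, and the differences given here are quiescent minus the other effect, in log2.

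Against proliferating cells the mitotic genes Mki67 (2.24), Ccnb2 (2.11), Ube2c (2.00) and Pbk (1.90), and D17H6S56E-5 (2.28), rose more in quiescent cells. Msln, which encodes mesothelin, differed by 1.95, having changed by -1.60 in proliferating and 0.35 in quiescent cells. Cck (-1.90), Clec10a (-1.74), Wfdc18 (-1.43), Cd93 (-1.38) and Ccl8 (-1.31) had lower values in the quiescent contrast. Clec10a and Cd93 passed the filter only through suspended or replated control arrays, so their differences here and below were in part fixed by the filter and are given as values only. Ephx1, an epoxide hydrolase gene, differed by -1.36, with an effect of 1.21 in proliferating and -0.15 in quiescent cells. Of these, Wfdc18 did not pass without pairs (adjusted p = 0.124 in limma).

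Against replated cells the spindle and cytokinesis genes Ect2 (1.26), Nusap1 (1.07) and Kif11 (0.90), the repair gene Fignl1 (1.12), Aoc3 (0.94) and Ccn4 (0.92) differed upward, and Clec10a (-1.19), Cnn1 (-0.93) and Rfxap (-0.62) downward. Cnn1, which encodes calponin, changed by -0.31 in quiescent and 0.62 in replated cells. Without pairs only Fignl1, Aoc3 and Clec10a of these passed in limma.

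Against differentiating cells Mki67 (2.08), D17H6S56E-5 (2.06), Ube2c (1.74) and Ccnb2 (1.69) differed upward again, together with the bone matrix gene Dmp1 (1.97) and with Bex1 (1.69), whose effect was -1.54 in differentiating and 0.15 in quiescent cells. Cd14 (-1.69), Cck (-1.68), Clec10a (-1.63), Sprr2h (-1.56), Scg2 (-1.47) and Cd68 (-1.44) differed downward. Cd68 passed the filter in the same way as Clec10a.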

How the results depend on the processing

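In the model without the replicate block, the quiescent contrast had 248 higher and 199 lower genes in place of 578 and 595, and the differences of effect had 107 genes against proliferating, 5 against replated and 97 against differentiating cells in place of 330, 12 and 452. With quiescent arrays only, 347 genes were lower. Quantile normalisation left 5 genes that differed against replated cells. With a replicate number left out, 362 to 390 genes were higher and 308 to 373 lower, and 3 to 8 differed against replated and 286 to 298 against differentiating cells. With neither the block nor 1 of the 6 arrays, 180, 182 and 182 genes were higher and 134, 135 and 125 lower without IFT88KD quiescent replicate 1, 2 and 3. Without control quiescent replicate 1, 2 and 3 the counts were 197, 170 and 178 higher and 147, 105 and 127 lower. Ift88 was no longer past the threshold without IFT88KD replicate 3 (-0.58) and without control replicate 1 (-0.62). The cause was not tested. Of 162 named genes past the threshold, 62 held under every alternative run, 100 were lost under at least 1 and 0 turned sign. The 28 largest rises and falls held in 26 cases, the exceptions being Myh1 and Wfdc18. Leaving out the block lost 60 of the calls and leaving out a pair lost 67 in at least 1 case, with some genes in both counts. With neither the block nor 1 of the 6 arrays, 75 to 87 were lost. Ift88 lay under the 60th percentile filter, which therefore gave no value, and with that filter 1 macrophage marker was lower. The number of arrays limits the precision.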
